A study of Mus musculus with 4 samples.

Results

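The genes described here build, acidify and equip the lysosome. They are the protein-coding genes of the RefSeq annotation of GRCm38 whose symbols begin with Atp6v or Atp6ap (the lysosomal proton pump), Lamp and a digit (membrane glycoproteins), Lamtor and a digit (the Ragulator complex), or consist of Cts and 1 letter (cathepsins). This rule found 54 of 21900 protein-coding genes: 25 of the proton pump, 5 of Ragulator, 4 LAMP genes, 18 cathepsins, and 2 outside these groups, Atp6v1fnb and Lamtor3-ps. The mark profiled was H3K79me2, dimethylated lysine 79 of histone H3, by ChIP-seq (sequencing of DNA recovered by immunoprecipitation of chromatin). The cells were dendritic cells (BMDCs), which present antigens, grown from the bone marrow of C57BL/6J mice and kept in medium with bovine serum. The cells received PBS, with no time stated in the labels, or 18 mM lysine for 6 h. For PBS and for lysine alike there was 1 library of H3K79me2 and 1 of input. Broad peaks of both H3K79me2 libraries were compared, and the inputs were not used here. The labels used here do not say how many mice or cultures stand behind a library. With no replicates the spread between libraries is unknown, so no test was made and every value describes these 2 libraries only.

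The vacuolar-type ATPase is a rotary proton pump. Its soluble V1 sector hydrolyses ATP and its membrane V0 sector carries protons into the lysosome, where the acid activates the cathepsins. LAMP proteins line the lysosomal membrane. Ragulator anchors the Rag GTPases there, which bring mTORC1 to the lysosome when amino acids are plentiful, and the pump takes part in that signalling. Dendritic cells use cathepsins to cut antigens and the MHC class II invariant chain. H3K79me2 is deposited by Dot1l and lies over the early part of transcribed genes. TFEB and its relatives regulate many lysosomal genes through promoter elements built around the letters CACGTG.

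The PBS list held 11926 peaks over 6.78 Mb and the lysine list 9805 peaks over 5.40 Mb. Depth is unknown, as the files hold no read counts. Fewer cells carrying the mark and less mark per cell cannot be told apart. The measure used below is covered length, the bp of a gene from end to end that lie under broad peaks. Summed over all protein-coding genes, the lysine library had 0.796 of the PBS covered length. Among all protein-coding genes, 34% had a PBS peak and 31.4% a lysine peak. Of 19 dendritic cell markers, PBS peaks lay on 12 (63.2%) and lysine peaks on 7 (36.8%). They covered 11042 and 6084 bp in sum, a ratio of 0.551. Covered markers included Itgax (935 bp in PBS, 431 bp in lysine), Cd86 (2478 and 1081 bp) and Cd74 (900 and 2134 bp). H2-Ab1 had a peak in PBS alone (2442 bp). No peak was called in either library on H2-Aa, Ccr7, Irf4, Batf3, Csf2rb, Spi1 or Cd209a. Markers of B cells (6 genes), mast cells and basophils (7) and stromal and endothelial cells (6) had no peak. Peaks lay on 7 of 10 macrophage and monocyte markers in PBS (70%) and 3 in lysine (30%), with 2894 and 1822 bp in sum. Of 8 neutrophil markers, 2 and 1 had a peak (25% and 12.5%, 570 and 346 bp). Of 7 T and NK cell markers, 2 had a peak in both (28.6%, 1006 and 953 bp). The lysine shares of dendritic and macrophage markers and the T and NK cell share were near those of all genes. The part of such cells in the values below was not tested.

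Promoter sequences of 42 of the 54 genes were found in a RefSeq table of GRCm38.p6, in 48 windows from 250 bp before to 50 bp after a transcription start. Atp6v1h, Atp6v1g1, Atp6v1b2, Atp6v1c1, Atp6v0a2, Atp6v0d2, Atp6ap1l, Lamtor3, Ctsb, Ctse, Ctsh and Ctsw had no entry. The palindrome CACGTG, which reads the same on both strands, stood in 11 of the 48 windows (22.9%), against 1664 of 21238 windows of all protein-coding genes (7.84%). The longer TCACGTGA, which contains it, stood in 5 (10.4%, against 1.23%), and the 10-letter CLEAR palindrome, which contains both, in 0 (against 0.419%). These matches describe letters and not occupied sites. The sequences shown are windows that hold CACGTG and were touched by a peak. They run 5′ to 3′ from 150 bases before to 29 bases after the start on GRCm38, with CACGTG in capitals.
Lamp1, chr8:13159011-13159190, plus strand: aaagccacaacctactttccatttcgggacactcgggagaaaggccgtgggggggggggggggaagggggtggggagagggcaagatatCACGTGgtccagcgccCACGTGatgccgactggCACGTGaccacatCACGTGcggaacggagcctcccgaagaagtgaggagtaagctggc
Lamtor1, chr7:101905687-101905866, plus strand: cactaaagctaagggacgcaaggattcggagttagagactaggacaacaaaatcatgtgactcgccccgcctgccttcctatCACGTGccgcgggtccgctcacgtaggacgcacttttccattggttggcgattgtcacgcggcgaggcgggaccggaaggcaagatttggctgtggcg
Lamtor4, chr5:138255332-138255511, plus strand: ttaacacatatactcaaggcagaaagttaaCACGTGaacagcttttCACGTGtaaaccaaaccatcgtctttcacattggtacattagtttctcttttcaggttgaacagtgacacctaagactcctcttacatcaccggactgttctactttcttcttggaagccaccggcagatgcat
Ctsa, chr2:164833623-164833802, plus strand: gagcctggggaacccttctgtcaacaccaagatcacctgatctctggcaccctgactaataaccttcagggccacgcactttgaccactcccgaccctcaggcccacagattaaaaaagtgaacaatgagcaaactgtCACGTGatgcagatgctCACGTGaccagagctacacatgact
Ctsd, chr7:142387798-142387977, minus strand: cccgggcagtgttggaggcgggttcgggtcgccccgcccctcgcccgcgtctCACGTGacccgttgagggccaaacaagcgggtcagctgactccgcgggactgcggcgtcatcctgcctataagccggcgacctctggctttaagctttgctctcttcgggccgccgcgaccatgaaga
Atp6v1a, chr16:44139230-44139409, minus strand: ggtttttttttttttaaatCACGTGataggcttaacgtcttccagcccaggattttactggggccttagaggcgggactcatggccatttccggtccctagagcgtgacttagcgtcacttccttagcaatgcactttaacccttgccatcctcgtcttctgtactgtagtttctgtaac
Atp6v0b, chr4:117887300-117887479, minus strand: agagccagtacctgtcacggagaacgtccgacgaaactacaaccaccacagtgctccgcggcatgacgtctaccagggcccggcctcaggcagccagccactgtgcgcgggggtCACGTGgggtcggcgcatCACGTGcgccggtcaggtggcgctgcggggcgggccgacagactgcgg
Atp6v0d1, chr8:105566035-105566214, minus strand: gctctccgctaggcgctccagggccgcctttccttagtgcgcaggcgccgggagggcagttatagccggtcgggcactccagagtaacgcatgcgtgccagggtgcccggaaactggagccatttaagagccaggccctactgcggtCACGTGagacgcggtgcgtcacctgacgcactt
Atp6v0e, chr17:26676246-26676425, plus strand: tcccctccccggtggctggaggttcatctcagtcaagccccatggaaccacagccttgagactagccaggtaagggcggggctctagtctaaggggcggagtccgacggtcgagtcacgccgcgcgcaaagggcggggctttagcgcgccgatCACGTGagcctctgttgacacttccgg

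Lamp1 held 4 copies within 61 bases before its start, the most of any window of these genes. Lamtor4, Ctsa and Atp6v0b held 2 each. Ctsd held a further copy 245 bases before its start, outside the stretch shown. The only copy of Ctsl stood 236 bases before its start, outside that stretch, so its window is not among the 9 shown. The Ctsa window belongs to the downstream of its 2 annotated starts, and both of its copies read TCACGTGA.

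H3K79me2 peaks lay over many of these promoters, and more often over those with CACGTG. A PBS peak touched 18 of the 48 windows and a lysine peak 16, where 26.3% and 24.8% of all promoter windows were touched. Of the 11 windows with CACGTG, 10 were touched in PBS and 7 in lysine. Of the 37 without it, 8 and 9 were touched. Over all protein-coding genes the shares were 40.7% in PBS and 40.1% in lysine for windows with CACGTG, and 25.1% and 23.5% for those without. The 3 windows with CACGTG touched in PBS alone belonged to the V0 genes Atp6v0b, Atp6v0d1 and Atp6v0e, and the window with CACGTG touched in neither library to Ctsf. GC content was not held constant in this description.

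A larger share of these genes than of all protein-coding genes carried a peak. A peak covered at least 1 bp of 30 of 54 genes in PBS (55.6%, 95% Clopper-Pearson interval 41.4 to 69.1) and of 25 in lysine (46.3%, 32.6 to 60.4), beside 34% and 31.4% of all protein-coding genes. These intervals cover counting error only. At least 500 bp were covered in 10 genes in PBS and 7 in lysine (background 11.4% and 9.02%), and genes of this kind are called marked. Of all members 32 had a peak in either library (background 38.7%). Peaks were present in both libraries on 23 genes (background 26.7%), in PBS alone on 7 and in lysine alone on 2 (background 7.32% and 4.68%). The remaining 22 genes had none.

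Their peaks were mostly found again in the other library. The genes carried 35 PBS peaks, of which 27 (77.1%, 59.9 to 89.6) shared at least 1 bp with a lysine peak, and 30 lysine peaks, of which 27 (90.0%, 73.5 to 97.9) overlapped a PBS peak. Over the whole lists 61.9% and 75.3% did so. The median fold enrichment, the authors' ratio of a peak to its local background, was 5.19 in the PBS peaks of these genes, where the list median was 4.52, and 5.07 in the lysine peaks, where it was 4.48. PBS peaks without a partner stood at a median percentile of 48.5 by −log10 q within the PBS list, and PBS peaks with a partner at 75.7.

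**Figure D1:**
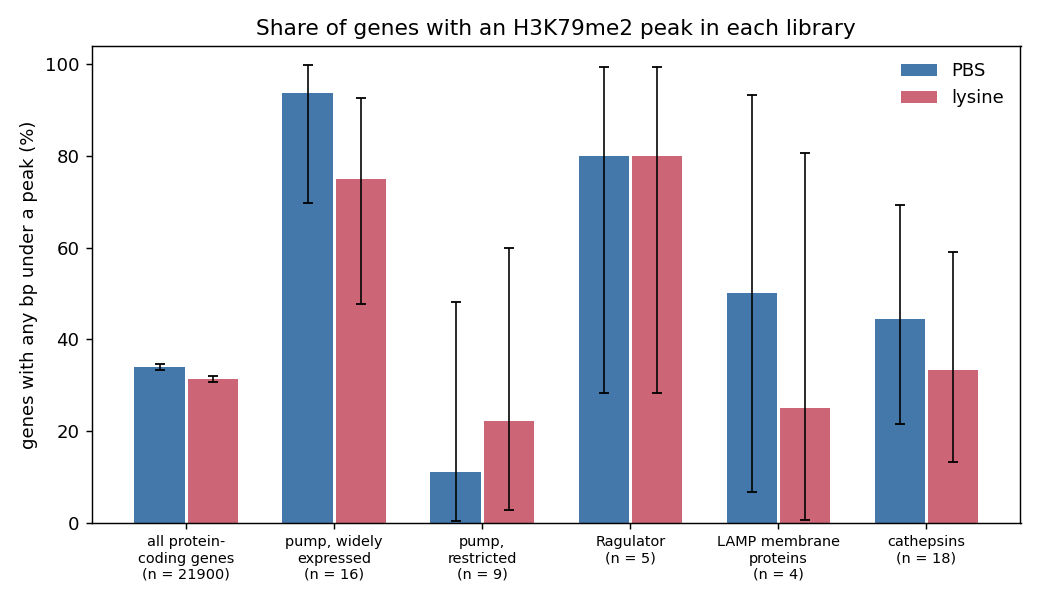
Share of genes with any bp under an H3K79me2 peak in percent (vertical axis), by gene group (horizontal axis) and library (colour); error bars are 95% Clopper-Pearson intervals. Widely expressed proton pump genes stand at 93.8% in PBS and 75.0% in lysine, and all protein-coding genes at 34% and 31.4%. The pump groups were drawn up after the values had been seen.

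Within the proton pump most genes with a peak were ones known as widely expressed. The pump genes were grouped, after their values had been seen, by the tissue distribution they are known for. All 16 widely expressed genes had a peak in at least 1 library, 15 in PBS (93.8%, 69.8 to 99.8) and 12 in lysine (75.0%, 47.6 to 92.7). Of 9 genes with restricted expression, 1 was covered in PBS (11.1%) and 2 in lysine (22.2%). Among all protein-coding genes the shares were 34% and 31.4%. As the grouping followed the values, these shares describe the genes and are no test of the grouping. The intervals do not cover the choice of groups. The subunits known mainly from kidney or testis, Atp6v1b1, Atp6v1c2, Atp6v1e2, Atp6v1g3 and Atp6v0a4, had no peak in either library, nor had Atp6v0e2 and Atp6ap1l. The exceptions were Atp6v0d2 and Atp6v1g2. Atp6v0d2, a V0 subunit known from osteoclasts and myeloid cells, had 484 bp in PBS and 404 bp in lysine, in 1 peak of each list centred over 3 kb from the nearer gene end. Atp6v1g2, a V1 subunit known from brain, had 319 bp in lysine and none in PBS, and all 319 bp lie where the gene overlaps Nfkbil1. Tcirg1, which encodes the V0 a3 subunit under a symbol outside the rule, had 146 and 10 bp.

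**Figure D2:**
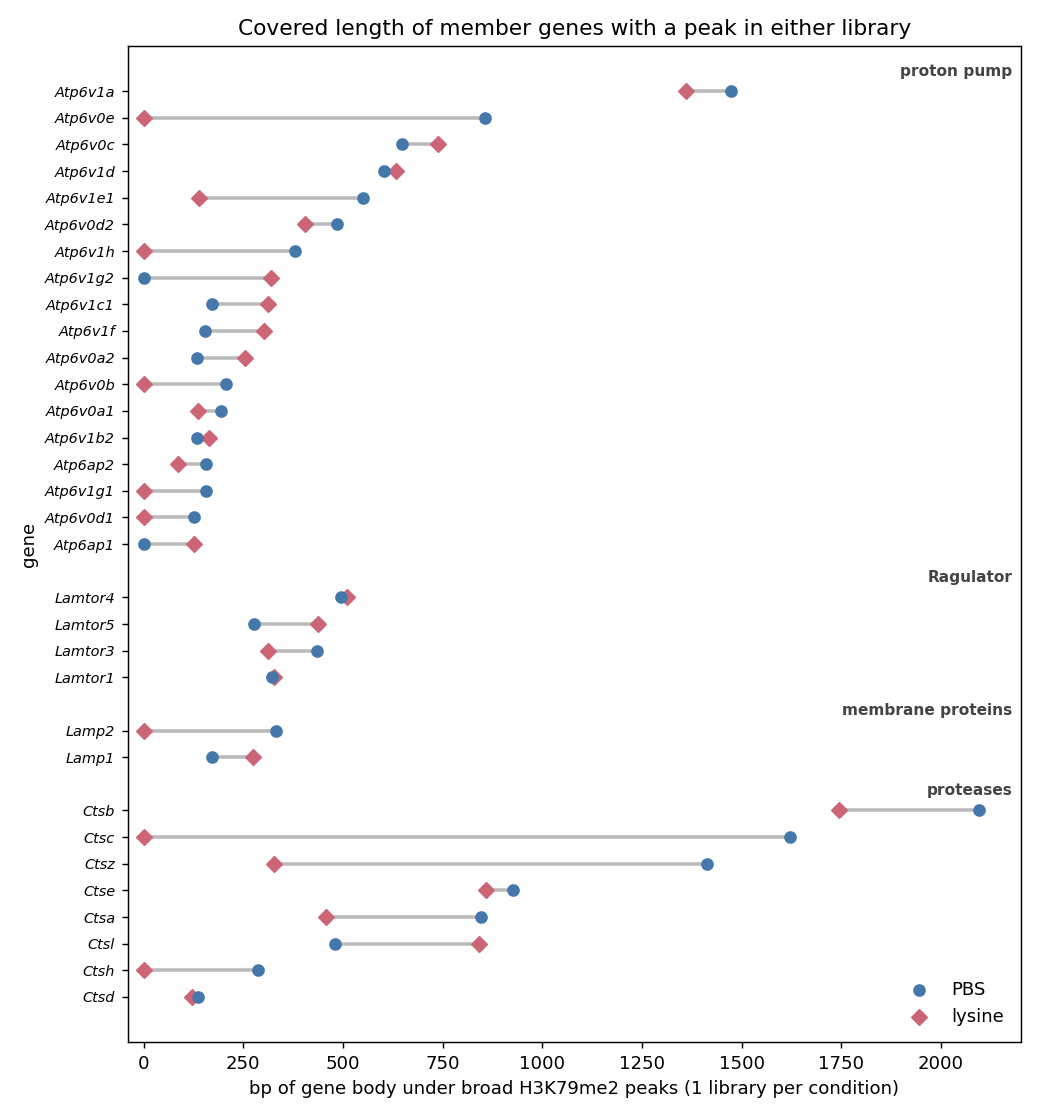
Covered length in bp (horizontal axis) of the 32 genes with a peak in either library (vertical axis), in PBS (circles) and lysine (diamonds), grouped by class. Most pump and Ragulator pairs lie close together, while Ctsc (1621 and 0 bp), Ctsz (1414 and 326 bp) and Atp6v0e (856 and 0 bp) lie far apart.

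Over the V1 sector, PBS peaks covered 3.62 kb and lysine peaks 3.23 kb, a ratio of 0.893. In each library 8 of 13 genes were covered (61.5%, background 34% in PBS and 31.4% in lysine). Atp6v1a, the catalytic subunit, was the most covered pump gene (chromosome 16, 44085402 to 44139702): 1474 bp in PBS, 1360 bp in lysine. At its start the 2 libraries had peaks of 1818 and 1845 bp that overlapped each other by 1744 bp and reached into the neighbouring gene Naa50, and a second pair lay about 19 kb inside the gene. Atp6v1d, of the central stalk, had 602 and 632 bp. Both peaks ran on over the gene start into Eif2s1, the PBS peak of 1809 bp to position -1207 and the lysine peak of 772 bp to position -140 in bp from the start, so with 1 kb added at both gene ends the difference, lysine minus PBS, was -830 bp. Atp6v1e1, of the peripheral stalk, had 551 and 139 bp. Its peaks at the start matched (percentiles 98.3 and 98.9 by −log10 q in the PBS and lysine lists), and the difference was mainly a second PBS peak of 385 bp that began 2038 bp inside the gene.

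The other V1 genes had short coverage at the gene end. Atp6v1c1 (171 and 312 bp), Atp6v1f (155 and 303 bp) and Atp6v1b2 (133 and 165 bp), the nucleotide-binding B subunit of most tissues, were longer in lysine. The coverage of Atp6v1b2 was shared with Slc18a1. Atp6v1g1 had 156 bp in PBS and 2 bp in lysine, yet the peaks themselves were 421 and 334 bp wide and overlapped by 267 bp, since both lay mainly outside the gene. Atp6v1h, a regulatory subunit, had 379 bp in PBS (fold 5.13) and no lysine peak.

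The V0 sector had less covered length in lysine, 1.53 kb against 2.65 kb in PBS (ratio 0.579), with 4 of 9 genes covered against 7 (background 31.4% and 34%). Without Atp6v0e, left out after its values were seen, the ratio was 0.855. The 3 genes with a PBS peak and no lysine peak were Atp6v0b, Atp6v0d1 and Atp6v0e. Atp6v0e, a small membrane subunit, had 856 bp in PBS from 1 wide peak at its start that was weak for its list, with a fold of 3.58 at percentile 6.70 by −log10 q, and with peaks limited to a −log10 q of 2 or more neither library covered it. Without this gene the lysine to PBS ratio of the whole pump was 0.893 in place of 0.774. Atp6v0b, a proteolipid of the proton-carrying ring, had 207 bp in PBS from a peak of fold 6.49 at percentile 87.7, the strongest PBS peak of these genes without a partner. Atp6v0d1, which links the stalk to the ring, had 126 bp. Atp6v0c, the main ring proteolipid, had 649 and 739 bp. Its start peaks of 818 and 766 bp covered 649 bp of the gene in PBS and 598 bp in lysine, and the remaining 141 bp in lysine came from a second peak at the far gene end, shared with Amdhd2. The PBS peak opposite that one, 316 bp wide, ended 4 bp outside the gene. Of the a subunits, Atp6v0a2 had 134 and 254 bp and Atp6v0a1 194 and 137 bp, the latter at the inner edge of peaks of 1561 and 1354 bp that lay mostly before the annotated gene start. Of the accessory proteins, Atp6ap2, the prorenin receptor, had 157 and 86 bp, and Atp6ap1 0 and 125 bp.

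**Figure D3:**
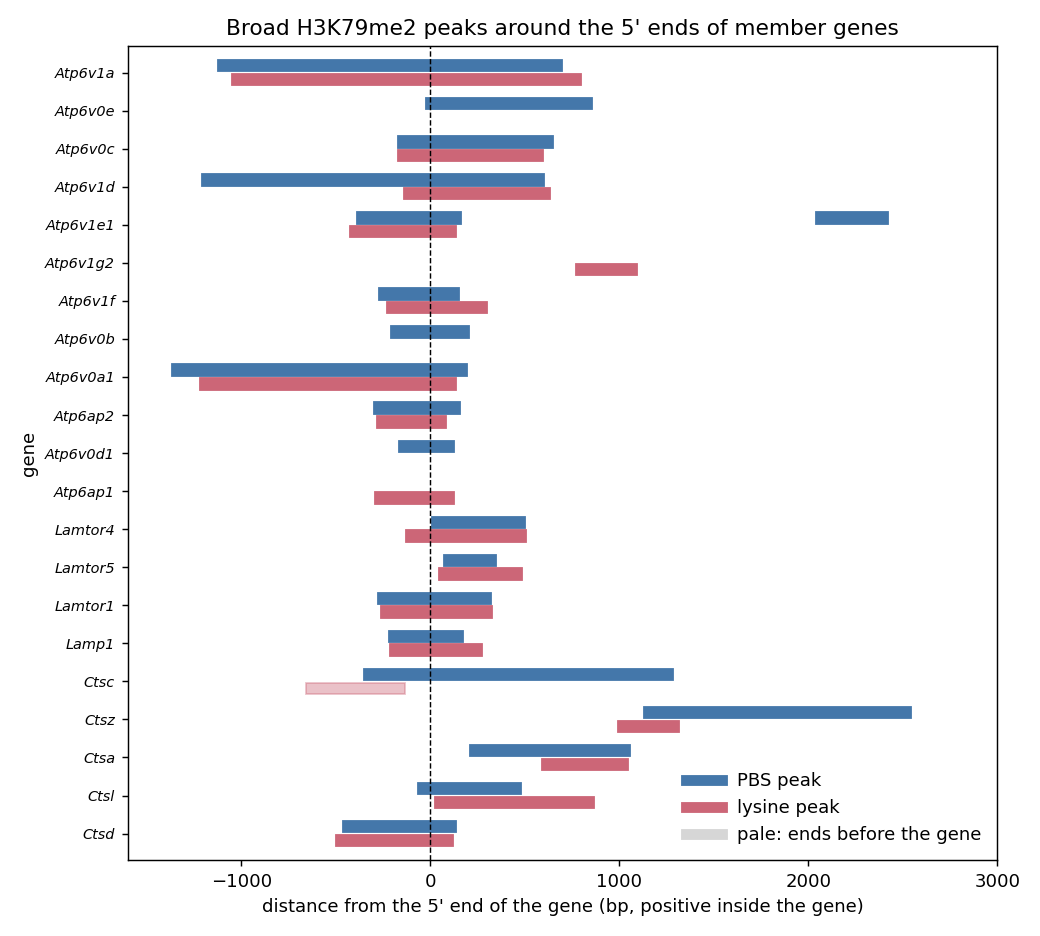
Broad peaks of the PBS (blue) and lysine (red) libraries by distance in bp from the 5′ end of the gene (horizontal axis, positive inside the gene), for genes (vertical axis) whose strand is known; peaks starting beyond 3 kb are not drawn. Of the 21 genes drawn, peaks of both libraries cross the dashed line at the gene start in 10, a peak of exactly 1 library in 7 and none in 4. At Ctsc the lysine peak ends 135 bp before it.

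Ragulator genes had peaks at or near a gene end, and those of both libraries overlapped. The median width of these peaks was 545.5 bp in PBS and 593.5 bp in lysine, where the whole lists had 456 and 450 bp. Both libraries had peaks on 4 of the 5 genes (background 26.7% in both libraries). Their total was 1531 bp in PBS and 1585 bp in lysine, a ratio of 1.04 where all genes gave 0.796. When the longer list was reduced to the same number of peaks as the shorter, all genes gave 0.95 and Ragulator still 1.04. Lamtor1, the lipid-anchored scaffold, had 323 and 326 bp, all shared with the overlapping gene Tomt. Its peaks of 597 and 589 bp overlapped by 586 bp and stood at percentile 99.1 by −log10 q in both lists. Lamtor4 had 494 and 509 bp, with folds of 7.10 in PBS and 10.2 in lysine. Lamtor3 had 436 and 313 bp, and Lamtor5, whose peaks were weak for their lists, 278 and 437 bp. Lamtor2 had no peak in either library. Held to a fold of at least 4 or to a −log10 q of at least 5, which removes Lamtor5, the ratio was 0.916. All genes gave 0.778 and 0.738 at these settings.

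Of the 4 LAMP genes, 2 had a PBS peak (50%) and 1 a lysine peak (25%), beside 34% and 31.4% of all protein-coding genes. Lamp1 (chromosome 8, 13159161 to 13175338) had 172 bp in PBS and 275 bp in lysine, from start peaks of 390 and 488 bp with folds of 8.30 and 6.28. Lamp2 had 332 bp in PBS from a peak of fold 3.92 that began 25022 bp inside the gene, and none in lysine. Lamp3, known as a marker of mature dendritic cells, and Lamp5 had no peak in either library. With 504 and 275 bp in all, the ratio of this class (0.546) rests on Lamp2, whose peak is lost at a fold of at least 4, where the ratio is 1.60.

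Of the 4 classes, cathepsin genes had the largest summed covered length in PBS and the largest difference in bp between the libraries. PBS peaks lay on 8 of 18 genes (44.4%) and lysine peaks on 6 (33.3%), beside 34% and 31.4% of all protein-coding genes. Marked cathepsin genes numbered 5 and 3 (27.8% and 16.7%, background 11.4% and 9.02%). The cathepsin total was 7.81 kb in PBS and 4.35 kb in lysine, a ratio of 0.557 where all genes gave 0.796. Without Ctsc the ratio was 0.703, and without Ctsc and Ctsz 0.843. These genes were left out after their values were seen. Among covered cathepsin genes the median was 886 bp in PBS and 649 bp in lysine, while covered pump genes had 200.5 and 278.5 bp. All covered protein-coding genes had medians of 353 and 324 bp. In lysine 7 of the 8 covered genes were shorter (87.5%, background 58.2%) and Ctsl was longer. The narrower blocks inside the same regions did not show this shortfall: they covered 3951 bp for PBS and 4045 bp for lysine.

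Ctsb, a cysteine protease abundant in lysosomes (chromosome 14, 63122462 to 63145923), was the most covered gene, with 2096 and 1745 bp. A PBS peak of 1523 bp at the nearer gene end stood opposite a lysine peak of 705 bp. A second pair about 6 kb inside had folds of 7.34 and 6.38, and lysine had a further peak of 736 bp. By narrow blocks Ctsb was longer in lysine by 381 bp.

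Ctsc, which activates granule serine proteases (chromosome 7, 88278024 to 88315861), had 1621 bp in PBS and none in lysine. Most came from a PBS peak of 1633 bp with a fold of 4.89 that began 348 bp before the gene. A lysine peak of 522 bp and fold 3.72 overlapped it by 214 bp but ended 135 bp before the gene start, so the gene counts as uncovered. No PBS or lysine peak of Ctsc passed a −log10 q of at least 5. Ctsz, a carboxypeptidase also called cathepsin X, had 1414 and 326 bp. Its peaks were weak for their lists (percentiles 21.9 and 18.7), began 1129 and 992 bp inside the gene and overlapped by 189 bp. The PBS region of Ctsz held no narrow block, so by blocks it was longer in lysine by 326 bp. With peaks limited to a fold of 4 or more, Ctsz had none in either library.

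Ctsa, the protective protein of lysosomal glycosidases, had 846 and 457 bp. Of these, 515 and 136 bp lie in the overlap with Neurl2, and both peaks covered the whole 300 bp window of its downstream start. Ctse, an aspartic protease of immune cells, had 926 and 859 bp in 2 peaks of each list that matched in place. Ctsh, an aminopeptidase, had 286 bp in PBS alone, from a peak about 6 kb inside. Ctsd, the main lysosomal aspartic protease, had only 136 and 121 bp, although its peaks of 598 and 617 bp were strong (folds 8.66 and 6.90). These peaks lay mostly before the gene start.

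Ctsl, which processes the invariant chain in thymic epithelium, was longer in lysine (841 bp) than in PBS (481 bp). Its peaks had the same −log10 q of 4.96 in their lists, and the lysine peak reached 866 bp into the gene, the PBS peak 480 bp. Ctss, the protease that performs this step in dendritic cells, had no peak in either library, and neither had Ctsk next to it, Ctsf, Ctso, the granule proteases Ctsg and Ctsw, or the 4 placental genes Ctsj, Ctsm, Ctsq and Ctsr. Absence from a peak list does not show that a gene lacks the mark.

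Taken gene by gene and counting any difference in bp, members were shorter or longer in lysine about as often as other genes. Among the 32 genes with a peak in either library, 19 were shorter in lysine (59.4%) and 13 longer, beside 58.2% and 41.5% of the 8472 such protein-coding genes, and the median difference was -69 bp beside -38 bp. A shortfall of at least 200 bp was found in 10 of the 32 and a gain of that size in 2, Ctsl and Atp6v1g2, where the background was 28.6% and 16.5%. By this measure gains of that size were a smaller share of members than of all genes. The members with such a gain numbered 4 by narrow blocks and 4 with 1 kb flanks, where the share of all genes was not computed. The covered length of all members summed to 16.3 kb in PBS and 11.2 kb in lysine, a ratio of 0.688. Ctsc, Ctsz and Atp6v0e together made up 53.0% of all the length that was shorter in lysine, and without these 3 genes, chosen after their values were seen, the ratio was 0.877.

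In genes of known strand, the coverage lay close to the starts. Members without a known strand are left out here, among them Ctsb, Ctse and Ctsh. Ctsb alone had 2096 of the 7806 cathepsin bp in PBS and 1745 of 4349 in lysine. Some Ctsb and Ctse peaks of both libraries began 6348 bp or more from the nearer gene end. In the 42 genes with a known strand, 67.6% of the covered bp in PBS and 83.7% in lysine lay in the first 1 kb, against 45.1% and 50.9% over 17492 protein-coding genes with a known strand. From 1 to 5 kb inside, the members had 2140 bp in PBS and 456 bp in lysine, a ratio of 0.213, where all genes gave 0.783. This ratio rests mainly on Ctsz, whose weak PBS peak (fold 3.83) gave 1414 of the 2140 bp. Its lysine peak gave most of the 456 bp, and a fold of at least 4 removes both. Of these, the cathepsins had 1755 and 364 bp, mainly Ctsz, Ctsc and Ctsa, and the pump genes 385 and 92 bp. In the first 1 kb the ratio was 0.798 in members and 0.899 in all genes. Ragulator genes with a known strand had all their coverage in the first 1 kb, 1095 bp in PBS and 1272 bp in lysine.

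**Figure D4:**
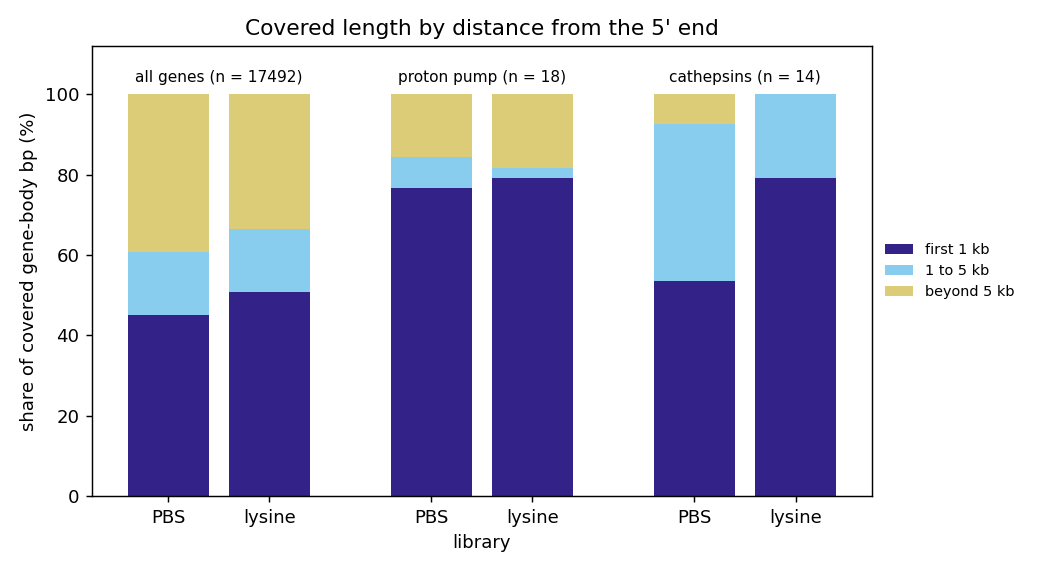
Share of covered gene-body bp in percent (vertical axis) by distance from the 5′ end (colour), in each library (horizontal axis), for all genes, the proton pump and the cathepsins. Only genes of known strand are counted, which leaves out Ctsb, Ctse and Ctsh among the cathepsins. The cathepsin share in the first 1 kb is 53.5% in PBS and 79.1% in lysine, and that of the pump 76.6% and 79.3%.

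Other genes of the lysosome were examined as 4 lists. They are read against all protein-coding genes, of which 34% and 31.4% had a peak. Among those with a peak in either library 58.2% were shorter in lysine and 41.5% longer, with a median difference of -38 bp, and the ratio was 0.796. Of 37 other hydrolases and cofactors, PBS peaks lay on 22 and lysine peaks on 19, and 17 were shorter and 9 longer in lysine (ratio 0.569, median difference of covered genes -52.5 bp). Npc2, a cholesterol carrier, had 2981 and 1570 bp, and the sulfatase Arsb 2437 and 429 bp. Of 32 other membrane and transport proteins, 20 and 22 had a peak, 11 were shorter and 13 longer (ratio 0.852, median 33 bp). Among them Scarb2, the receptor that delivers glucocerebrosidase, had 1411 and 1834 bp. Gnptab, which makes the mannose 6-phosphate tag of lysosomal enzymes, had 1798 and 322 bp, and Nagpa, the next enzyme of that pathway, 1167 and 236 bp.

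Of 14 genes of pump assembly and regulation, 10 and 9 had a peak, and 9 were shorter in lysine and 2 longer (ratio 0.488, median -168 bp). Tm9sf4, a membrane protein that binds the pump, had 1628 and 652 bp, and Rnasek, a small membrane protein associated with the pump, 1429 and 105 bp. Of 20 genes of mTORC1 recruitment and the TFEB family, 14 and 16 had a peak, and 11 were shorter and 6 longer (ratio 0.699, median -76 bp). Fnip2, a folliculin partner, had 2210 and 909 bp, and Tfec, a TFEB relative of macrophages, 1710 and 337 bp. Within the TFEB family the direction was mixed: Tfe3 was longer in lysine (276 and 1360 bp), while Tfeb (621 and 459 bp) and Mitf (766 and 436 bp) were shorter.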

How the data were processed

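Libraries of H3K79me2 ChIP and input DNA from fixed BMDCs were paired-end, per the labels' protocols. MACS2 2.1.2 stands in the submitters' processing notes beside Bowtie2 2.3.4.1, Trimmomatic 0.38, cutadapt 1.18 and the build GRCm38, without roles. Peaks were deposited per sample. How peaks were thresholded, and whether inputs served as controls, is not given in the sources used here. Columns were read by the MACS2 layout, as headers are lacking. The authors' fold enrichment is a linear ratio, their −log10 p and −log10 q are given per peak, and the deposited score is 10 times −log10 q without decimals. These values rank or filter peaks within a list. Depth is unknown.

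Groups came from sample titles. Covered length was computed from merged broad peaks over RefSeq genes of GRCm38.p6. It had 0 differences from bedtools 2.31.1 and was tested on simulated data (200 of 200 genes recovered). Strand was taken from the promoter table, whose overlapping windows on opposite strands matched as reverse complements in 805 of 805 pairs. For genes without an entry, distances are from the nearer end. Peak sets were compared by overlap of at least 1 bp. Named genes are members with at least 500 bp or a peak in 1 library alone, all Ragulator and LAMP genes, and from each other list the 2 most covered and the 2 with the largest difference. Further members, the rest of the TFEB family and the sequences with CACGTG were chosen after values were seen. The members and lists were chosen with earlier results of these data known. Alternatives were stricter peaks, equal peak numbers, narrow blocks, 1 kb flanks, other limits for marked genes, and no overlapping genes. Python 3.11.15, numpy 2.4.6, pandas 2.3.3, scipy 1.17.1 and matplotlib 3.10.9 were used.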

Additional observations from a re-analysis of the deposited data

How the results depend on the processing

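No paired analysis was possible because each condition has 1 library. Of 91 recomputed shares, counts and class ratios, 73 stayed within their limits, 13 moved and 5 crossed 1. The limits were the 95% interval for shares and 1.5 times for counts and ratios. The Ragulator ratio was 0.916, and the LAMP ratio 1.60, when peaks were held to a fold of 4 or more, and also to a −log10 q of 5 or more. All genes gave 0.778 and 0.738 there. The cathepsin ratio was 1.02 by narrow blocks. The pump ratio ranged from 0.568 to 0.893 and that of all members from 0.661 to 0.892. Beside all genes, members gave 0.892 against 0.811 by narrow blocks, 0.661 against 0.738 at a −log10 q of 5 or more, and 0.726 against 0.95 with equal numbers of peaks. At a −log10 q of at least 5, 10 members were shorter in lysine, 5 by at least 200 bp. That threshold left 33.3% of members covered in PBS and 27.8% in lysine, and 5.56% marked in PBS and 9.26% in lysine. Gains of at least 200 bp numbered 4 by narrow blocks and 4 with 1 kb flanks, and 1 without genes overlapping another. With flanks 29.6% were marked in PBS and 31.5% in lysine. In both of these settings more members were marked in lysine than in PBS, the reverse of the main count. With 250 bp as the limit 35.2% were marked in PBS and 33.3% in lysine, and with 1000 bp 7.41% and 3.70%. Shares and counts of all protein-coding genes were not computed at these settings. Whether all genes moved in the same way is therefore unknown, and these shares and counts describe the members alone. Of 26 members followed, 7 turned: by narrow blocks Atp6v1a (106 bp), Ctsb (381 bp) and Ctsz (326 bp), with flanks Atp6v1d (-830 bp) and Lamtor1 (-8 bp), and with a −log10 q of 5 or more Ctsa (457 bp) and Ctse (136 bp). At that threshold 13 showed no difference, genes with no peak in either library included. Apart from the causes built into an alternative, the cause of a change was not tested. Depth is unknown, so an uncalled peak is not an absent mark.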
